A study of Mus musculus with 12 samples.

Results

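The messenger RNAs of 10 CC chemokines were followed across 6 culture conditions of murine bone marrow-derived macrophages (BMDMs). The members were the rows of the gene table with the symbols Ccl17, Ccl22, Ccl24, Ccl2, Ccl7, Ccl8, Ccl3, Ccl4, Ccl6 and Ccl9, which are 10 of its 34327 genes. The BMDMs were grown from the marrow of C57BL/6J mice in L929-conditioned medium, embedded in floating gels of rat tail collagen I or cultured on tissue culture (TC) plates, and harvested at 24 hours. The gels held either 2 mg/ml collagen (low-collagen) or about 7 mg/ml (high-collagen). Cells in each type of gel and on TC plates were left untreated or given recombinant murine interleukin-4 (IL-4, 20 ng/ml), which makes 6 conditions with 2 libraries each, 12 libraries in all. No genetic change, transgene or Cre was part of these groups, and all 6 shared the strain and the growth medium. The labels do not say whether the 2 libraries of a condition came from separate mice or cultures, so p-values measure only the spread between these libraries, which may be technical. The comparison of low with high collagen asks whether macrophages read the density and stiffness of the matrix, and the comparison with and without IL-4 asks whether that reading depends on a type 2 signal.

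CC chemokines are small secreted proteins with adjacent first cysteines that bind G protein-coupled receptors on leukocytes and guide their movement. Macrophages given IL-4, which signals through STAT6, are known for secreting ligands that draw type 2 cells: CCL17 and CCL22, the ligands of CCR4 on T helper 2 and regulatory T cells, and CCL24 (eotaxin-2), a ligand of CCR3 on eosinophils. CCL2, CCL7 and CCL8 are the monocyte chemoattractant proteins (MCPs), of which CCL2 is the main CCR2 ligand for monocytes. CCL3 and CCL4 are the macrophage inflammatory proteins MIP-1α and MIP-1β, made in response to inflammatory stimuli. CCL6 and CCL9 are ligands abundant in rodent myeloid cells. In the text below, Ccl17, Ccl22 and Ccl24 are called the type 2 ligands and the MCP and MIP-1 genes together the inflammatory ligands.

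Values are TPM, an abundance of transcripts scaled for transcript length and for the library total, so that levels can be compared between genes. Totals lay between 999658 and 999723 TPM, and read depth is unknown. Replicate libraries correlated at Pearson's r of 0.980 to 0.985 on the log2(TPM + 1) scale, and no library held the same values as another. All 7 macrophage marker genes examined were expressed, with summed levels of 17460 to 53485 TPM. None of the 7 dendritic cell markers reached a mean of 1 TPM, and their summed level was 0.865 to 2.57 TPM. The 4 low-collagen libraries, at 1.72 to 2.57 TPM, were above all others, and the part of these markers in the values of Ccl17 and Ccl22, which dendritic cells also make, was not tested. Among the markers of other cells that can make or receive these ligands, 1 of 4 for eosinophils, 2 of 6 for neutrophils, 0 of 4 for mast cells and basophils, 0 of 6 for lymphocytes and 0 of 6 for fibroblasts reached that mean. The neutrophil genes above it were S100a8 and S100a9, of which S100a9 was higher in every gel library than in every TC library, while the defining neutrophil marker Ly6g and the eosinophil marker Epx were listed at 0 in all 12 libraries. The summed neutrophil markers were 4.08 to 9.16 TPM on TC plates and 12.8 to 30.4 TPM in gels, and their part in the differences between plates and gels was not tested. These are bulk RNA levels, so fewer cells of a type and less RNA per cell cannot be told apart.

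The 10 genes lie on 3 chromosomes of the mouse genome (GRCm38, GENCODE M21), and all are annotated as protein coding. Ccl2 (chr11:82035571-82037453), Ccl7 (chr11:82045712-82047525) and Ccl8 (chr11:82115185-82116799) stand in that order on the plus strand. Farther along chromosome 11 are Ccl9 (chr11:83572919-83578636), Ccl6 (chr11:83587882-83593087) and Ccl3 (chr11:83647844-83649355) on the minus strand and Ccl4 (chr11:83662584-83664683) on the plus strand. The type 2 genes are elsewhere, with Ccl22 (chr8:94745590-94751699) and Ccl17 (chr8:94810453-94812036) together on the plus strand of chromosome 8 and Ccl24 (chr5:135569937-135573049) on the minus strand of chromosome 5. Near-identical sequence was rare: 7 members shared no 31-base word with the transcripts of another gene, and the shared part was 0.0775% of the words of Ccl24, 1.02% of Ccl6 and 3.98% of Ccl9.

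Promoter windows from RefSeq (GRCm38.p6) were matched by symbol for 6 of the 10 genes, namely Ccl17, Ccl22, Ccl8, Ccl3, Ccl6 and Ccl9. The 250 bases before the start are shown, 5′ to 3′ on the gene's strand, for Ccl17 and Ccl8, which were at or near 0 TPM without IL-4 and rose with it in gels, and for Ccl3, which fell with IL-4. The windows are chr8:94810203-94810452 (+) for Ccl17, chr11:82114935-82115184 (+) for Ccl8 and chr11:83649379-83649628 (−) for Ccl3, and capitals mark motif matches.
Ccl17: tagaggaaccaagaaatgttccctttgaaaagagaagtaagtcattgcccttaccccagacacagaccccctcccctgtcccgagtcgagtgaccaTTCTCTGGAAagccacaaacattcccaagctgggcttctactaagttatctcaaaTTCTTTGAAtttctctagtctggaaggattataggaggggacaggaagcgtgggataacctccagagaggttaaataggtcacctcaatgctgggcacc
Ccl8: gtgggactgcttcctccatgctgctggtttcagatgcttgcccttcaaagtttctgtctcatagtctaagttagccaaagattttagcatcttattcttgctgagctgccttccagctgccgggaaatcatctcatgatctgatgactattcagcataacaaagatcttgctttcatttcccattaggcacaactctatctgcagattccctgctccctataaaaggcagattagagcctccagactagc
Ccl3: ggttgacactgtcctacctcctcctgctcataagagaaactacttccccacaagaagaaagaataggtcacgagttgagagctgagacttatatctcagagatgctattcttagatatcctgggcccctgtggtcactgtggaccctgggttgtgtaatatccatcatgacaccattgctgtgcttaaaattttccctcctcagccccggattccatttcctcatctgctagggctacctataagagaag
The motifs searched were the STAT6-type sequence TTCNNNNGAA, the interferon-γ-activated (GAS) type sequence TTCNNNGAA, both of which read the same on either strand, and the NF-κB (kappaB) consensus on both strands. They occurred in 5.85%, 7.02% and 7.25% of the 32851 promoter windows of the same length. The Ccl17 window held a STAT6-type match, TTCTCTGGAA, from 154 to 145 bases before the start and a GAS-type match, TTCTTTGAA, from 99 to 91 bases before it, and these did not overlap. The Ccl9 window held a kappaB match from 35 to 26 bases before the start. No match was found in the windows of Ccl22, Ccl8, Ccl3 or Ccl6, which says only that these letters are not there.

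With IL-4 the 2 families of inflammatory ligands moved in opposite directions in gels and on TC plates, the MCP genes up and the MIP-1 genes down. Differences are IL-4 minus untreated in log2(TPM + 1), a scale that understates the change of low genes, with the standard error of the limma fit and a Benjamini-Hochberg adjusted p over all genes tested; calls were made under 0.2, the threshold the study used. In low-collagen gels 8 of 10 members rose, where 13.2% of the 11852 genes tested did, and 2 fell, where 40.4% did. In high-collagen gels 8 of 10 rose against 11.5% of all genes, and 2 fell against 22.8%. On TC plates, where Ccl17 with its mean of 0.979 TPM over the 12 libraries was under the limit of 1 TPM and was not tested, 6 of 9 rose against 14.7% of all genes and 2 fell against 24%. The genes that fell were Ccl3 and Ccl4 in each setting, and the other 8 were called higher in both gels. Some of these calls carry no weight as counts: members whose untreated mean was under 1 TPM entered the test through their IL-4 libraries. They were Ccl17 and Ccl8 in low-collagen gels, these and Ccl22 in high-collagen gels, and Ccl22, Ccl24 and Ccl8 on TC plates. Of the members with an untreated mean of at least 1 TPM, 6 of 8 rose and 2 fell in low-collagen gels, 5 of 7 rose and 2 fell in high-collagen gels, and 4 of 6 rose and 2 fell on TC plates. The median over all genes was -0.19 for IL-4 in low-collagen gels and -0.10 in high-collagen gels, and rescaling by median ratios, which removes that shift, changed no call or direction of a member in these 3 comparisons.

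**Figure D1:**
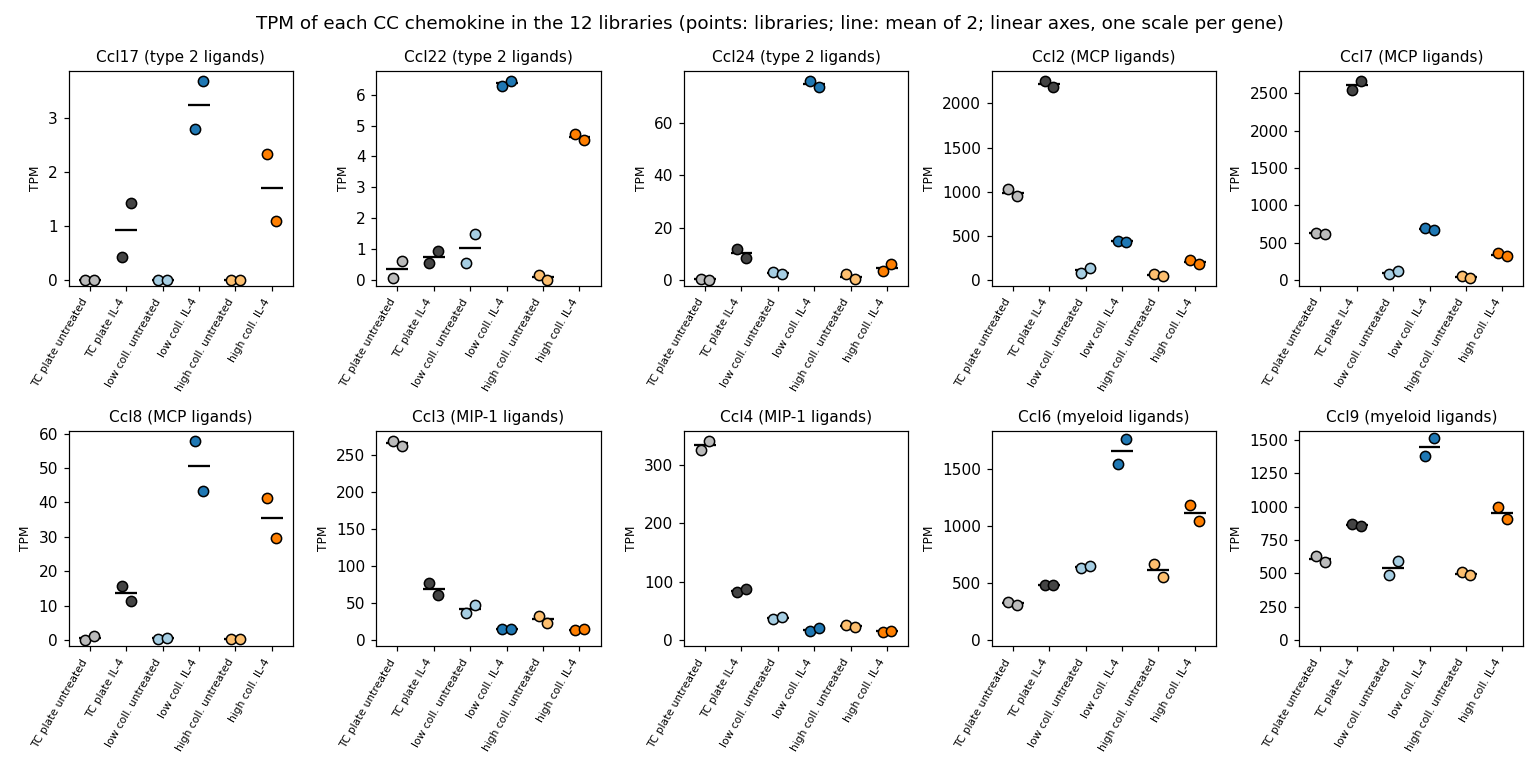
Levels of the 10 CC chemokines in TPM (linear vertical axis, a separate scale for each gene) by condition, with 1 point per library and a line at the mean of 2. Ccl24 stands at 76.0 and 73.6 TPM in the low-collagen IL-4 libraries and at no more than 11.9 TPM in any other, while Ccl2, Ccl3, Ccl4 and Ccl7 are highest on TC plates.

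Of the type 2 ligands, Ccl17 was listed at 0 TPM in all 6 untreated libraries. With IL-4 it was 2.80 and 3.68 TPM in low-collagen gels, 2.32 and 1.09 TPM in high-collagen gels and 0.430 and 1.43 TPM on TC plates. It was thus seen only in the 6 libraries with IL-4, at low levels, and no fold is given against 0. It reached the limit for testing in gels only through the IL-4 libraries, so its calls there are not read as a test.

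Ccl22 was 0.542 and 1.50 TPM in untreated low-collagen gels and 6.28 and 6.46 TPM with IL-4. In high-collagen gels it was 0.172 and 0 TPM untreated and 4.73 and 4.53 TPM with IL-4. The IL-4 libraries were above all untreated libraries in both gels, with differences of 1.91 ± 0.26 (SE; adjusted p = 0.00142) and 2.38 ± 0.26 (adjusted p = 0.000783). In high-collagen gels Ccl22 entered the test through its IL-4 libraries, so its call there is not read as a test. On TC plates the 2 groups overlapped. Ccl22 there was 0.0706 and 0.609 TPM untreated and 0.549 and 0.948 TPM with IL-4, a difference of 0.40 ± 0.29 that did not pass the test (adjusted p = 0.371).

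Ccl24 had the widest spread of the type 2 ligands. In low-collagen gels it was 3.13 and 2.25 TPM untreated and 76.0 and 73.6 TPM with IL-4, a difference of 4.37 ± 0.38 (adjusted p = 0.000152). In high-collagen gels it was 2.12 and 0.353 TPM untreated and 3.44 and 5.92 TPM with IL-4, a difference of 1.43 ± 0.38 (adjusted p = 0.0401). Without IL-4 the high-collagen libraries were far apart, and all IL-4 libraries were above them. On TC plates it was 0.352 and 0.137 TPM untreated and 11.9 and 8.46 TPM with IL-4, a difference of 3.15 ± 0.36 (adjusted p = 0.000172). Its untreated mean on TC plates was under 1 TPM, so its call there is not read as a test. By mean level Ccl24 was ordered as low-collagen gels, TC plates and high-collagen gels with IL-4, then low-collagen gels, high-collagen gels and TC plates untreated. The difference between the untreated high- and low-collagen gels, at -0.83 ± 0.38, did not pass the test (adjusted p = 0.342). High-collagen gels with IL-4 and untreated low-collagen gels, neighbours in this order, did not overlap but were not tested against each other.

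All 3 MCP genes rose with IL-4 in every setting. Ccl2 was 82.2 and 138 TPM untreated and 438 and 434 TPM with IL-4 in low-collagen gels, 64.8 and 41.3 TPM and then 227 and 185 TPM in high-collagen gels, and 1026 and 953 TPM and then 2260 and 2184 TPM on TC plates. The libraries did not overlap in any setting, and the differences were 2.02 ± 0.27 (adjusted p = 0.00115), 1.96 ± 0.27 (adjusted p = 0.00212) and 1.17 ± 0.24 (adjusted p = 0.00603). Ccl7 was 72.9 and 116 TPM untreated and 690 and 663 TPM with IL-4 in low-collagen gels, 47.2 and 28.6 TPM and then 358 and 314 TPM in high-collagen gels, and 635 and 612 TPM and then 2544 and 2671 TPM on TC plates. It was below Ccl2 in the untreated libraries and above it in all 6 libraries with IL-4. Its differences were 2.87 ± 0.26 (adjusted p = 0.000176), 3.15 ± 0.26 (adjusted p = 0.000159) and 2.06 ± 0.23 (adjusted p = 0.00014).

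Ccl8, which codes for MCP-2, was near 0 without IL-4, unlike Ccl2 and Ccl7. Untreated, it was 0.395 and 0.730 TPM in low-collagen gels, 0.481 and 0.400 TPM in high-collagen gels and 0 and 1.27 TPM on TC plates. With IL-4 it was 57.8 and 43.4 TPM, 41.3 and 29.7 TPM, and 15.6 and 11.5 TPM in the same order. Every IL-4 library was above every untreated library, and the differences of 5.04 ± 0.21 (adjusted p = 3.53e-06), 4.65 ± 0.21 (adjusted p = 8.64e-06) and 3.26 ± 0.35 (adjusted p = 0.000102) were the largest of any member in each setting. Ccl8 entered the test through its IL-4 libraries in each setting, so its calls are not read as a test. The median over the 3 MCP genes was 2.87 in low-collagen gels, 3.15 in high-collagen gels and 2.06 on TC plates, beside -0.19, -0.10 and -0.06 over all genes.

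Both MIP-1 genes fell. Ccl3 was 36.5 and 47.4 TPM untreated and 14.5 and 14.6 TPM with IL-4 in low-collagen gels, 33.0 and 23.8 TPM and then 13.2 and 15 TPM in high-collagen gels, and 270 and 262 TPM and then 77.3 and 60.4 TPM on TC plates. Its IL-4 differences were -1.45 ± 0.18 (adjusted p = 0.000785), -0.95 ± 0.18 (adjusted p = 0.00959) and -1.94 ± 0.17 (adjusted p = 3.13e-05). Ccl4 was 36.6 and 39.9 TPM untreated and 15.4 and 20.2 TPM with IL-4 in low-collagen gels, 26.1 and 22.3 TPM and then 13.9 and 16.5 TPM in high-collagen gels, and 325 and 342 TPM and then 82.1 and 86.8 TPM on TC plates. The untreated libraries were the higher ones in each setting for both genes, with no overlap. The Ccl4 differences were -1.07 ± 0.15 (adjusted p = 0.0016), -0.64 ± 0.15 (adjusted p = 0.026) and -1.97 ± 0.13 (adjusted p = 4.2e-06).

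Ccl6 and Ccl9 were abundant in every library and rose with IL-4. Ccl6 was 632 and 655 TPM untreated and 1552 and 1765 TPM with IL-4 in low-collagen gels, 671 and 555 TPM and then 1190 and 1052 TPM in high-collagen gels, and 337 and 313 TPM and then 486 and 482 TPM on TC plates. Its differences were 1.36 ± 0.11 (adjusted p = 8.49e-05), 0.87 ± 0.11 (adjusted p = 0.00127) and 0.57 ± 0.10 (adjusted p = 0.00205). The groups with and without IL-4 did not overlap in any setting. Ccl9 was 485 and 590 TPM untreated and 1374 and 1513 TPM with IL-4 in low-collagen gels, 510 and 487 TPM and then 996 and 905 TPM in high-collagen gels, and 630 and 586 TPM and then 867 and 858 TPM on TC plates. Its differences were 1.43 ± 0.10 (adjusted p = 4.52e-05), 0.93 ± 0.10 (adjusted p = 0.000697) and 0.50 ± 0.09 (adjusted p = 0.00303). Ccl6 and Ccl9 are the chromosomal neighbours of Ccl3 and Ccl4, which moved the other way.

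**Figure D2:**
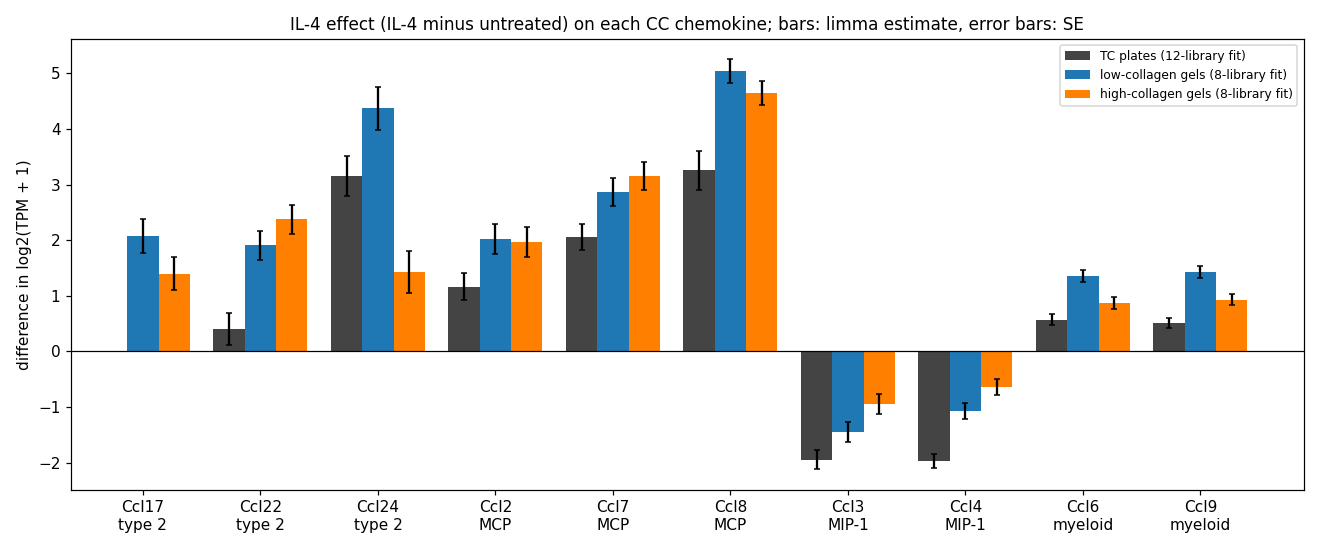
IL-4 minus untreated for each CC chemokine, in log2(TPM + 1) on the vertical axis, with bars for the limma estimate and error bars for its SE in TC plates, low-collagen and high-collagen gels. Ccl3 and Ccl4 are below 0 in all 3 settings, from -1.97 to -0.64, and the other genes are above it; Ccl17 was not tested on TC plates, and its bars in gels are set by the pseudocount since its untreated libraries are listed at 0.

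The balance of the 10 transcripts also differed between conditions. Their summed level was 1349 and 1590 TPM in untreated low-collagen gels and 4227 and 4538 TPM with IL-4, 1356 and 1159 TPM and then 2850 and 2528 TPM in high-collagen gels, and 3223 and 3069 TPM and then 6345 and 6364 TPM on TC plates. Most of the sum was Ccl6 and Ccl9 in gels, at 69.2% to 89.9% in the 8 gel libraries, and the MCP genes on TC plates, at 51.0% to 76.5% in the 4 plate libraries. The MIP-1 genes made up 18.5% and 19.7% of the sum on untreated TC plates and 2.51% and 2.31% with IL-4. In gels their share was 3.98% to 5.49% untreated and 0.709% to 1.25% with IL-4. The ratio of Ccl2 and Ccl7 to Ccl3 and Ccl4 summarises this shift. It was 1.52 to 2.91 in all 6 untreated libraries, on plates and in gels alike, and 15.8 to 37.6 in all 6 with IL-4. These shares are given as values without a test, and each moves when any other member moves.

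The type 2 ligands were a small part of the sum throughout. With IL-4 their share was 2.01% and 1.85% at low collagen, 0.368% and 0.457% at high collagen and 0.203% and 0.170% on TC plates. Untreated, it was 0.272% and 0.236% in low-collagen gels, 0.169% and 0.0305% in high-collagen gels and 0.0131% and 0.0243% on TC plates. With IL-4 and low collagen, Ccl24 was the greater part of that share, at 1.71% ± 0.13 (SD, n = 2) of the sum, where Ccl17 and Ccl22 were 0.0737% ± 0.011 (SD, n = 2) and 0.145% ± 0.0044 (SD, n = 2). With IL-4 and high collagen, Ccl24 at 0.177% ± 0.080 (SD, n = 2) was level with Ccl22 at 0.173% ± 0.0093 (SD, n = 2).

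**Figure D3:**
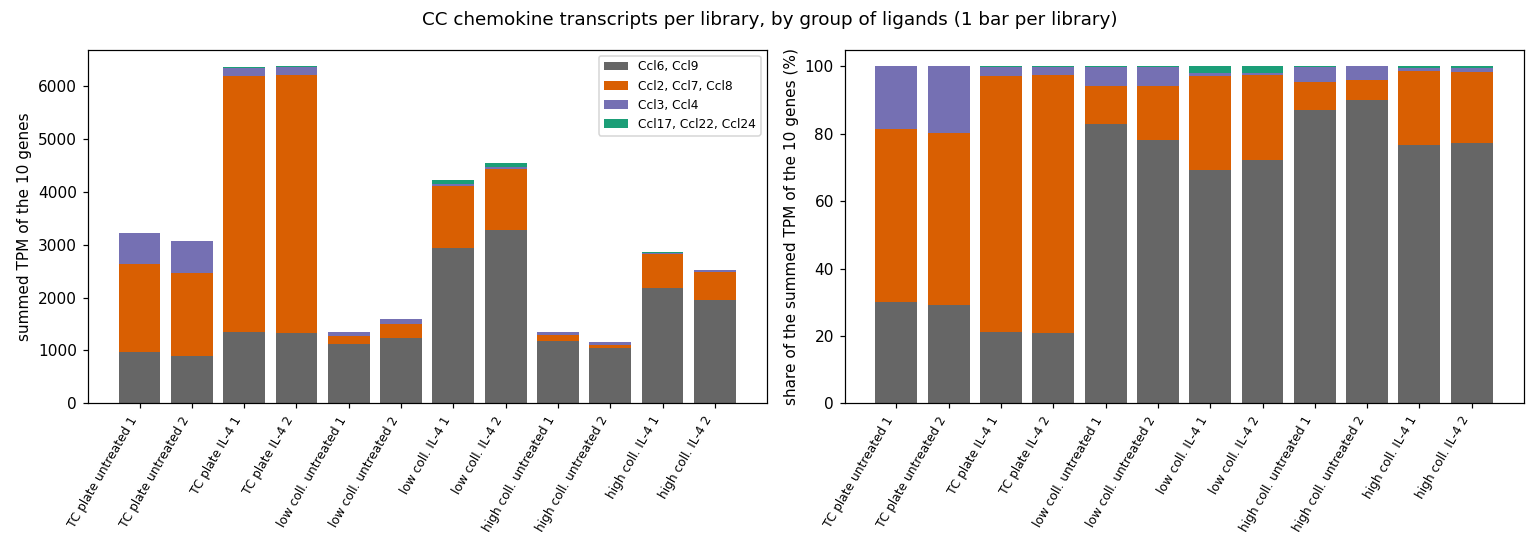
Summed TPM of the 10 CC chemokines in each library (left, TPM) and the share of each group of ligands in that sum (right, percent), with 1 stacked bar per library. Ccl2, Ccl7 and Ccl8 take most of the bar on TC plates and Ccl6 and Ccl9 most of it in gels, and the share of Ccl17, Ccl22 and Ccl24 reaches 2.01% at its highest, in low-collagen gels with IL-4.

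Between the gels, no member was higher and 5 were lower at high collagen, in both the presence and the absence of IL-4. With IL-4, 0 of 10 were higher, where 14.1% of all genes tested were, and 5 of 10 were lower, where 6.99% were. The lower genes were Ccl24 at -3.77 ± 0.38 (adjusted p = 0.00766), Ccl2 at -1.09 ± 0.27 (adjusted p = 0.0632), Ccl7 at -1.01 ± 0.26 (adjusted p = 0.0684), Ccl6 at -0.56 ± 0.11 (adjusted p = 0.0314) and Ccl9 at -0.60 ± 0.10 (adjusted p = 0.023). For each of the 5, both high-collagen libraries were below both low-collagen libraries. They came from 3 of the 4 families: the MCP genes Ccl2 and Ccl7, the myeloid genes Ccl6 and Ccl9, and, of the type 2 ligands, Ccl24. The count fell to 3 without the second high-collagen IL-4 library and to 3 without the second low-collagen IL-4 library, and the calls lost were those of Ccl2 and Ccl7 both times.

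The remaining members did not pass with IL-4. Ccl17 (-0.68 ± 0.30, adjusted p = 0.231), Ccl22 (-0.39 ± 0.26, adjusted p = 0.417) and Ccl8 (-0.50 ± 0.21, adjusted p = 0.212) were lower in both high-collagen libraries than in both low-collagen libraries but did not pass the test. Each of these 3 was called lower under some alternatives, with lowest adjusted p-values of 0.151 for Ccl17, 0.197 for Ccl22 and 0.145 for Ccl8, the last after median-ratio rescaling. Ccl3 (-0.05 ± 0.18, adjusted p = 0.906) and Ccl4 (-0.21 ± 0.15, adjusted p = 0.453) overlapped between the gels. A difference that missed the threshold does not show that the gels were alike.

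Without IL-4, 0 of 10 were higher against 3.23% of all genes, and 5 of 10 were lower against 4.79%. The genes were Ccl7 at -1.30 ± 0.26 (adjusted p = 0.0709), Ccl2 at -1.03 ± 0.27 (adjusted p = 0.131), Ccl4 at -0.64 ± 0.15 (adjusted p = 0.108), Ccl3 at -0.55 ± 0.18 (adjusted p = 0.195) and Ccl22 at -0.86 ± 0.26 (adjusted p = 0.177). Ccl22 was near the floor, at 0.172 and 0 TPM in high-collagen and 0.542 and 1.50 TPM in low-collagen gels. It passed the limit for testing through its IL-4 libraries, which are not part of this comparison. Here 4 of the 5 were inflammatory ligands, and Ccl2 and Ccl7 were the genes lower in high-collagen gels with as well as without IL-4. Ccl24 at -0.83 ± 0.38 (adjusted p = 0.342), Ccl8 at -0.11 ± 0.21 (adjusted p = 0.851), Ccl6 at -0.07 ± 0.11 (adjusted p = 0.787) and Ccl9 at -0.10 ± 0.10 (adjusted p = 0.68) did not pass, and Ccl17 was listed at 0 in all 4 libraries. These 5 calls rest on single libraries. All were lost without the second untreated high-collagen library, and also without the second untreated low-collagen library. Without the first untreated high-collagen library those of Ccl22, Ccl3 and Ccl4 were lost, and Ccl24, not among the 5, was called lower at -1.44.

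**Figure D4:**
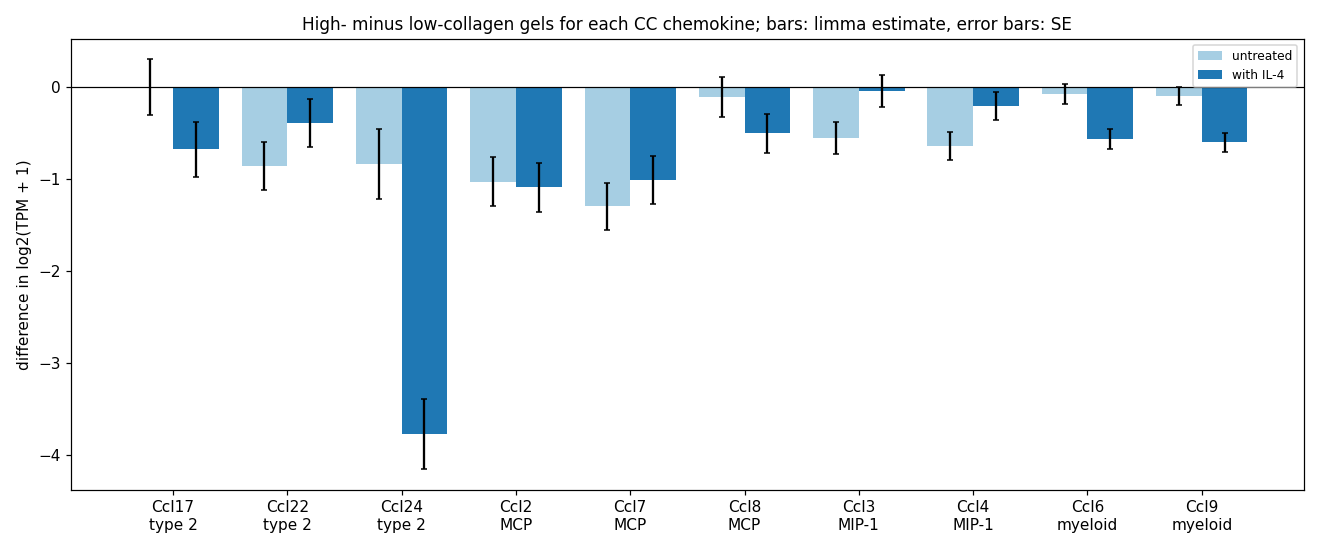
High-collagen minus low-collagen gels for each CC chemokine, in log2(TPM + 1) on the vertical axis, without and with IL-4, with bars for the limma estimate and error bars for its SE. Ccl24 with IL-4 is at -3.77 and all other bars are between -1.30 and 0; the untreated value of Ccl17 is 0 because all 4 libraries are listed at 0.

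Whether the IL-4 difference itself depended on collagen was tested as the interaction, which takes the IL-4 difference of low-collagen gels from that of high-collagen gels. It passed for 1 of 10 members, Ccl24, at -2.94 ± 0.54 (adjusted p = 0.191), where 0.169% of all genes were called in that direction and 0.194% in the other, with 0 members. The other type 2 ligands were at -0.68 ± 0.42 for Ccl17 (adjusted p = 0.632) and 0.47 ± 0.37 for Ccl22 (adjusted p = 0.705). The value for Ccl22 had the opposite sign to that of Ccl24. The call for Ccl24 was lost when any of the libraries of the fit was left out except the second untreated high-collagen library, in which Ccl24 was 0.353 TPM. The inflammatory ligands were between -0.39 for Ccl8 and 0.51 for Ccl3, and none passed. For Ccl6 at -0.49 ± 0.15 and Ccl9 at -0.50 ± 0.14 the adjusted p was 0.395 and 0.364.

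Gels and TC plates differ in dimension, substrate and the handling of the cells and RNA, and these cannot be told apart. Low-collagen gels compared to TC plates without IL-4 had 3 of 9 tested members higher against 28.5% of all genes and 5 of 9 lower against 44.3%. High-collagen gels had 2 of 9 higher against 28% and 5 of 9 lower against 45.5%. These shares are near the background. The inflammatory ligands other than Ccl8 were far lower in both gels, with Ccl2 at -3.20 ± 0.24 (adjusted p = 2.59e-06), Ccl7 at -2.75 ± 0.23 (adjusted p = 5.32e-06), Ccl3 at -2.65 ± 0.17 (adjusted p = 1.15e-06) and Ccl4 at -3.09 ± 0.13 (adjusted p = 8.34e-08) in low-collagen gels and at -4.23, -4.05, -3.20 and -3.73 in high-collagen gels. Ccl6 was higher in both, at 0.98 ± 0.10 (adjusted p = 1.66e-05) and 0.91 ± 0.10 (adjusted p = 2.64e-05). Ccl24 was higher at 1.56 ± 0.36 (adjusted p = 0.00406) and 0.73 ± 0.36 (adjusted p = 0.109), from levels of at most 3.13 TPM, and Ccl22 in low-collagen gels, at 0.58 ± 0.29 (adjusted p = 0.111). These low values rest on single libraries. The call of Ccl24 in high-collagen gels was lost without the first untreated high-collagen library (0.13, adjusted p = 0.75) or the second untreated TC library (0.60, adjusted p = 0.302). That of Ccl22 was lost without the second untreated low-collagen library (0.23, adjusted p = 0.563) or the first untreated TC library (0.29, adjusted p = 0.499). Ccl8, near 0 TPM in all of these libraries, was at 0.04 and -0.06 and took either sign with 1 untreated TC library left out. The median over all genes was -0.13 and -0.16 in these comparisons, and the lower calls of Ccl9, at -0.18 and -0.28, were lost with rescaling, where they became -0.01 and -0.09.

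With IL-4, low-collagen gels had 5 of 9 members higher than TC plates against 22.8% of all genes and 4 of 9 lower against 52.2%. The higher genes were Ccl24 at 2.78 ± 0.36 (adjusted p = 0.000106), Ccl22 at 2.08 ± 0.29 (adjusted p = 0.000163), Ccl8 at 1.83 ± 0.35 (adjusted p = 0.00118), Ccl6 at 1.77 ± 0.10 (adjusted p = 5.76e-07) and Ccl9 at 0.74 ± 0.09 (adjusted p = 7.28e-05). Ccl22 was under 1 TPM in both TC libraries with IL-4 and passed the limit for testing through its gel libraries with IL-4. Its calls here and in high-collagen gels against TC plates are thus not read as a test and carry no weight in the counts. The lower genes were Ccl2, Ccl7, Ccl3 and Ccl4, at -2.35, -1.94, -2.16 and -2.19. High-collagen gels had 3 of 9 higher against 26.5% and 5 of 9 lower against 48.1%. Ccl22 at 1.70 ± 0.29 (adjusted p = 0.000618), Ccl8 at 1.32 ± 0.35 (adjusted p = 0.00759) and Ccl6 at 1.21 ± 0.10 (adjusted p = 4.49e-06) were again higher, and Ccl2, Ccl7, Ccl3 and Ccl4 again lower, at -3.43, -2.96, -2.20 and -2.40. Ccl24 differed in sign between the gels: in high-collagen gels it was lower than on TC plates, at -0.99 ± 0.36 (adjusted p = 0.0363), a call lost without the first high-collagen library with IL-4 (-0.67, adjusted p = 0.219). Both comparisons use the same TC libraries. The median over all genes was -0.28 and -0.20, and Ccl9 in high-collagen gels, at 0.14 ± 0.09 (adjusted p = 0.213), became 0.39 and was called higher with rescaling.

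The IL-4 differences were then compared between gels and TC plates. In low-collagen gels minus TC plates, 8 of 9 members were called higher against 9.3% of all genes and 0 lower against 18.7%. Of the 8, Ccl22, Ccl24 and Ccl8 had untreated means under 1 TPM on TC plates and carry no weight in this count. The positive values were greater rises for Ccl22 at 1.50 ± 0.41 (adjusted p = 0.0472), Ccl8 at 1.78 ± 0.49 (adjusted p = 0.048), Ccl24 at 1.22 ± 0.51 (adjusted p = 0.165), Ccl6 at 0.79 ± 0.14 (adjusted p = 0.00684), Ccl9 at 0.93 ± 0.13 (adjusted p = 0.00217), Ccl2 at 0.85 ± 0.34 (adjusted p = 0.143) and Ccl7 at 0.80 ± 0.32 (adjusted p = 0.151), and a lesser fall for Ccl4 at 0.90 ± 0.18 (adjusted p = 0.0145). Ccl3 at 0.49 ± 0.24 (adjusted p = 0.236) did not pass. The direction for Ccl24 depends on the scale, since with a pseudocount of 0.1 it was -0.19. The calls of Ccl22 and Ccl8 were also lost under alternative processing, with highest limma adjusted p-values of 0.447 and 0.633. The count was 5 without the first or the second untreated TC library, without the second TC library with IL-4, and without either low-collagen library with IL-4. The calls of Ccl6, Ccl9 and Ccl4 held with each library left out in turn, and those of Ccl2, Ccl7 and Ccl24 did not. Those of Ccl22 and Ccl8 also held, but leaving out a library does not change their low untreated TC levels. They are not read as a test.

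In high-collagen gels minus TC plates, 6 of 9 members were called higher against 8.66% of all genes and 1 lower against 8.61%. Here too, Ccl22, Ccl24 and Ccl8, with untreated means under 1 TPM on TC plates, carry no weight in the counts. Ccl22 at 1.97 ± 0.41 (adjusted p = 0.0204), Ccl8 at 1.39 ± 0.49 (adjusted p = 0.14), Ccl7 at 1.09 ± 0.32 (adjusted p = 0.083) and Ccl9 at 0.42 ± 0.13 (adjusted p = 0.0896) rose more in gels, and Ccl3 at 1.00 ± 0.24 (adjusted p = 0.0409) and Ccl4 at 1.33 ± 0.18 (adjusted p = 0.00276) fell less. Ccl24 was the exception at -1.72 ± 0.51 (adjusted p = 0.0828), a smaller rise in high-collagen gels than on plates. That call was lost without the first high-collagen library with IL-4 (-1.40, adjusted p = 0.23), the first TC library with IL-4 (-1.50, adjusted p = 0.217) or the second untreated TC library (-1.60, adjusted p = 0.206), and the value was -1.12 without the first untreated high-collagen library. Ccl2 at 0.80 ± 0.34 (adjusted p = 0.22) and Ccl6 at 0.30 ± 0.14 (adjusted p = 0.264) did not pass. The count was 3 without the first high-collagen library with IL-4. The calls of Ccl3 and Ccl4 held with each library left out in turn, and those of Ccl7, Ccl8 and Ccl9 did not. That of Ccl22 also held but, given its low untreated TC level, is not read as a test.

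Of 14 other CC ligands listed, 4 were expressed at a mean of 1 TPM or more and tested: Ccl12, Ccl5, Ccl25 and Ccl27a. Ccl12, a further MCP gene (MCP-5) between Ccl7 and Ccl8 on chromosome 11 (chr11:82101845-82103400, plus strand), also rose with IL-4. It was 15.4 and 23.9 TPM untreated and 200 and 188 TPM with IL-4 in low-collagen gels, 20.2 and 14.2 TPM and then 128 and 108 TPM in high-collagen gels, and 229 and 201 TPM and then 993 and 994 TPM on TC plates. Its IL-4 differences were 3.27 ± 0.22 (adjusted p = 3.54e-05), 2.72 ± 0.22 (adjusted p = 0.000147) and 2.21 ± 0.20 (adjusted p = 3.16e-05). With IL-4 it was lower in high- than in low-collagen gels, at -0.72 ± 0.22 (adjusted p = 0.106). Untreated, where Ccl2 and Ccl7 were called lower at high collagen, Ccl12 overlapped between the gels and was at -0.17 ± 0.22 (adjusted p = 0.767). Ccl5, which codes for the T cell and monocyte attractant RANTES, varied widely between replicates in low-collagen gels, at 20.5 and 45.0 TPM untreated and 72.1 and 21.5 TPM with IL-4, and its IL-4 differences did not pass. It was higher in gels than on TC plates, where it was at most 4.28 TPM. Ccl25, which codes for the thymus-expressed chemokine TECK, was called lower with IL-4 in low-collagen gels, at -0.52 ± 0.13 (adjusted p = 0.02), and in high-collagen gels, at -0.73 ± 0.13 (adjusted p = 0.00796). This was the direction of Ccl3 and Ccl4 in gels. On TC plates, where Ccl3 and Ccl4 also fell, Ccl25 was at 0.05 ± 0.13 and was not called (limma adjusted p = 0.847). Ccl27a, which is listed under 3 identifiers so that its values are uncertain, was at -0.47 ± 0.24 (adjusted p = 0.164) and -0.92 ± 0.24 (adjusted p = 0.035), and the first of these calls was lost with rescaling (adjusted p = 0.45).

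Among the CC receptors, Ccr2, the main receptor for CCL2 and CCL7, went from 22.1 and 23.5 TPM to 7.12 and 7.22 TPM with IL-4 in low-collagen gels and from 36.4 and 33.6 TPM to 10.7 and 11.4 TPM in high-collagen gels, at -1.54 ± 0.10 (adjusted p = 3.04e-05) and -1.58 ± 0.10 (adjusted p = 4.4e-05). Its transcript fell in both gels and was higher, at 0.56 ± 0.10 (adjusted p = 0.0271) with IL-4, in the high-collagen gels in which its ligand genes Ccl2 and Ccl7 were lower.

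**Figure D5:**
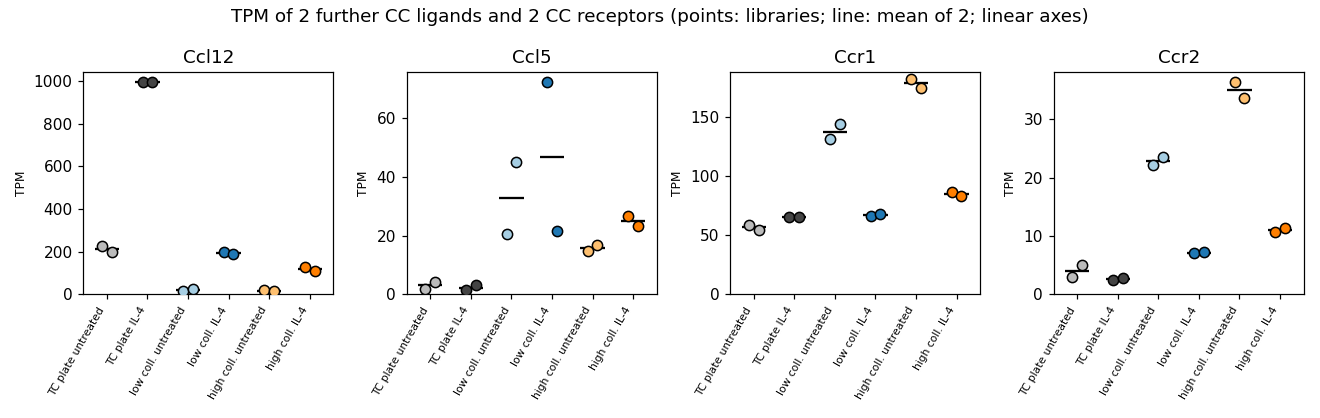
Levels of the CC ligands Ccl12 and Ccl5 and the receptors Ccr1 and Ccr2 in TPM (linear vertical axis, a separate scale for each gene) by condition, with 1 point per library and a line at the mean of 2. Ccl12 reaches 993 and 994 TPM on TC plates with IL-4, and Ccr2 is highest in untreated high-collagen gels at 36.4 and 33.6 TPM.

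Across the 12 libraries, which share 6 conditions, the log2(TPM + 1) levels of the members fell into patterns that are given as a description. Ccl3 and Ccl4 had a Pearson's r of 0.987 and Ccl2 and Ccl7 of 0.966. Ccl8, although an MCP gene, was closer to Ccl17 (0.932) and Ccl9 (0.934) than to Ccl2 (0.342). Ccl6 ran against Ccl3, at -0.900. Among genes with a mean of at least 5 TPM, the gene most like each member was Plk3 for Ccl2 (0.994), Dnase2a for Ccl7 (0.987), Rnase2a for Ccl8 (0.993), Hcls1 for Ccl3 (0.998), Arhgdib for Ccl4 (0.993), Vmp1 for Ccl6 (0.977), Timp2 for Ccl9 (0.974), Bloc1s6 for Ccl22 (0.974) and Gng11 for Ccl24 (0.944). Socs1, which codes for a feedback inhibitor of cytokine signalling, came next for Ccl8 (0.991), and Retnla, which codes for RELMα and is induced by IL-4, came next for Ccl9 (0.969). Ccl17 was too low to be ranked.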

How the data were processed

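RNA-seq libraries of murine BMDMs from 6 conditions, 2 libraries each, were analysed. The authors prepared stranded libraries from polyadenylated RNA and estimated abundances with kallisto 0.46.1, and they deposited 1 table of TPM per gene, scaled for length and library total, so read depth, and with it counting error, is unknown. The table's 34456 lines were reduced to 34327 genes by collapsing 129 repeated lines, none of them a member. Values were taken as log2(TPM + 1). limma 3.58.1 in R 4.3.3 was fitted with a mean per condition, a mean-variance trend in the moderated variances and two-sided tests, over genes with a mean of at least 1 TPM: 8 gel libraries (11852 genes) for comparisons within gels and 12 libraries (11865 genes) for those with TC plates. Benjamini-Hochberg adjusted p-values over all genes were called under 0.2. An exact permutation test of 2 against 2 cannot go below p = 0.33 and was not used. All 10 members are named; other CC ligands with a mean of at least 1 TPM are named, likewise receptors, of which some are not reported here, and the genes most alike were ranked over genes with a mean of at least 5 TPM. The members and lists were chosen with earlier results of these data known. Code was checked on simulated data. Library numbers were not treated as pairs in the main fit. The deviations of equal numbers from their condition means correlated at -0.12 to 0.11 in 15 pairs of conditions, with 1 over 0.1. This cannot exclude a pairing, since the order of the libraries may differ between conditions. The alternatives were other pseudocounts, filters, normalizations, thresholds, sets of libraries and a replicate block, and leaving out each library.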

Additional observations from a re-analysis of the deposited data

Results flagged for a closer look

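The IL-4 difference of some members depended on the culture, by a limma test of the difference itself, in log2(TPM + 1). Between the gels this was called for Ccl24, at -2.94 for high- minus low-collagen gels (adjusted p = 0.191), a call that rested on single libraries. In low-collagen gels minus TC plates it was called for Ccl2 at 0.85, Ccl22 at 1.50, Ccl24 at 1.22, Ccl4 at 0.90, Ccl6 at 0.79, Ccl7 at 0.80, Ccl8 at 1.78 and Ccl9 at 0.93, with adjusted p-values between 0.00217 and 0.165. The calls of Ccl2, Ccl7 and Ccl24 rested on single libraries, and the Ccl24 value was -0.19 with a pseudocount of 0.1. In high-collagen gels minus TC plates it was called for Ccl22 at 1.97, Ccl24 at -1.72, Ccl3 at 1.00, Ccl4 at 1.33, Ccl7 at 1.09, Ccl8 at 1.39 and Ccl9 at 0.42, with adjusted p-values between 0.00276 and 0.14. The calls of Ccl24, Ccl7, Ccl8 and Ccl9 rested on single libraries. Untreated TC means of Ccl22, Ccl24 and Ccl8 were under 1 TPM, so their calls against TC plates are not read as a test. The 2 comparisons with TC plates share the TC libraries. With 2 libraries per condition, single libraries far from the rest of their condition could not be looked for.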

How the results depend on the processing

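Each condition has 2 libraries and read depth is unknown. With each library left out, each of the 10 members kept its direction for IL-4 in high-collagen gels. Ccl17, Ccl22 and Ccl8 entered that test through their IL-4 libraries, so their calls carry no weight as counts. Of members called, IL-4 in high-collagen gels went from 10 to 6 when a 2-fold change was required. High against low collagen with IL-4 went from 5 to 3 at an adjusted p under 0.05 and to 3 with a 2-fold change required, and was 3 to 7 with each library left out. The same comparison without IL-4 went from 5 to 1 without the filter on low values, 3 without the trend, 3 with a replicate block, 0 at an adjusted p under 0.05, 2 with a 2-fold change required and 2 with only the compared libraries, and was 0 to 4 with each library left out. The interaction in gels went from 1 to 0 with a pseudocount of 0.1, without the filter, without the trend, with a replicate block and at an adjusted p under 0.05, and was 0 to 1 with each library left out. Against TC plates without IL-4, low-collagen gels went from 8 to 5 and high-collagen gels from 7 to 4 with a 2-fold change required. The IL-4 difference in low-collagen gels minus that on TC plates went from 8 to 5 with a pseudocount of 0.1, 5 at an adjusted p under 0.05 and 3 with a 2-fold change required, and was 5 to 8 with each library left out; that in high-collagen gels went from 7 to 3 at an adjusted p under 0.05, and was 3 to 8 with each library left out. Ccl8 in untreated gels against TC plates took the other sign, -0.55 for low-collagen and 0.53 for high-collagen gels, without 1 untreated TC library, with ranges of -0.55 to 0.64 and -0.66 to 0.53. Ccl24 in low-collagen gels minus TC plates was -0.19 with a pseudocount of 0.1. The labels do not say whether libraries of equal number belong together, so calls lost under the block are given without a reading. A library left alone in its condition was assumed to vary like the others. The causes of these changes were not tested.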
